A study of Mus musculus with 6 samples.

Results

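T-box factors are transcription factors that bind DNA through a conserved domain, the T-box. The 8 members described here, Tbx1, Tbx2, Tbx3, Tbx4, Tbx5, Tbx15, Tbx18 and Tbx20, were taken from the values table as the features whose single annotated symbol was one of these names. They are 8 of the 19946 genes measured, each has 1 feature on the array, and all 8 entered the test because no filter on dim genes was applied. RNA of whole mouse lungs was measured at E14.5, in embryonic days, on 6 single-colour arrays, 3 per genotype. The control embryos carried Shh-Cre alone. This Cre recombinase is expressed from the Shh locus and acts in the endoderm that forms the lung epithelium. The mutants carried Shh-cre with homozygous floxed alleles, labelled Foxp1flox/flox (written a second time in the place where the series title has Foxp2) and Foxp4flox/flox. Both groups had a mixed background of C57BL/6 and 129X1. Control mesenchyme and mutant mesenchyme both lie outside the reach of Shh-Cre, and a whole lung holds epithelium and mesenchyme together.

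In the developing lung the T-box genes divide by tissue. Tbx1 is known from the lung epithelium and, more widely, from the pharyngeal endoderm and mesoderm, where its loss disturbs the outflow tract, thymus and parathyroids. Tbx2, Tbx3, Tbx4 and Tbx5 are known from the lung mesenchyme. There Tbx4 and Tbx5 act upstream of Fgf10 and of Wnt2 during bud outgrowth and branching, and Tbx2 and Tbx3 act downstream of hedgehog signalling to keep the mesenchyme dividing. Tbx18 marks mesothelium, epicardium and the sinus horns of the heart, Tbx20 is a cardiac factor, and Tbx15 belongs to limb, skin and skeletal development.

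Of the 8 genes only Tbx1, the member known from the epithelium, fell in the mutant lungs, to a level 2.82-fold below the controls. The 4 mesenchymal genes Tbx2, Tbx3, Tbx4 and Tbx5 did not pass the test, and the ends of their intervals lay within 1.19-fold of no change. Tbx18 and Tbx20 were high in 1 mutant lung, in which heart muscle genes were high too. Tbx15 read at the level of silent genes in every array. Thus 1 of 8 members passed an adjusted p of 0.05, against 7.66% of all genes in either direction and 3.83% of all genes for falls. The mutant values lay wholly on one side of the control values for 2 of 8 members, against 25.9% of all genes.

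**Figure D1:**
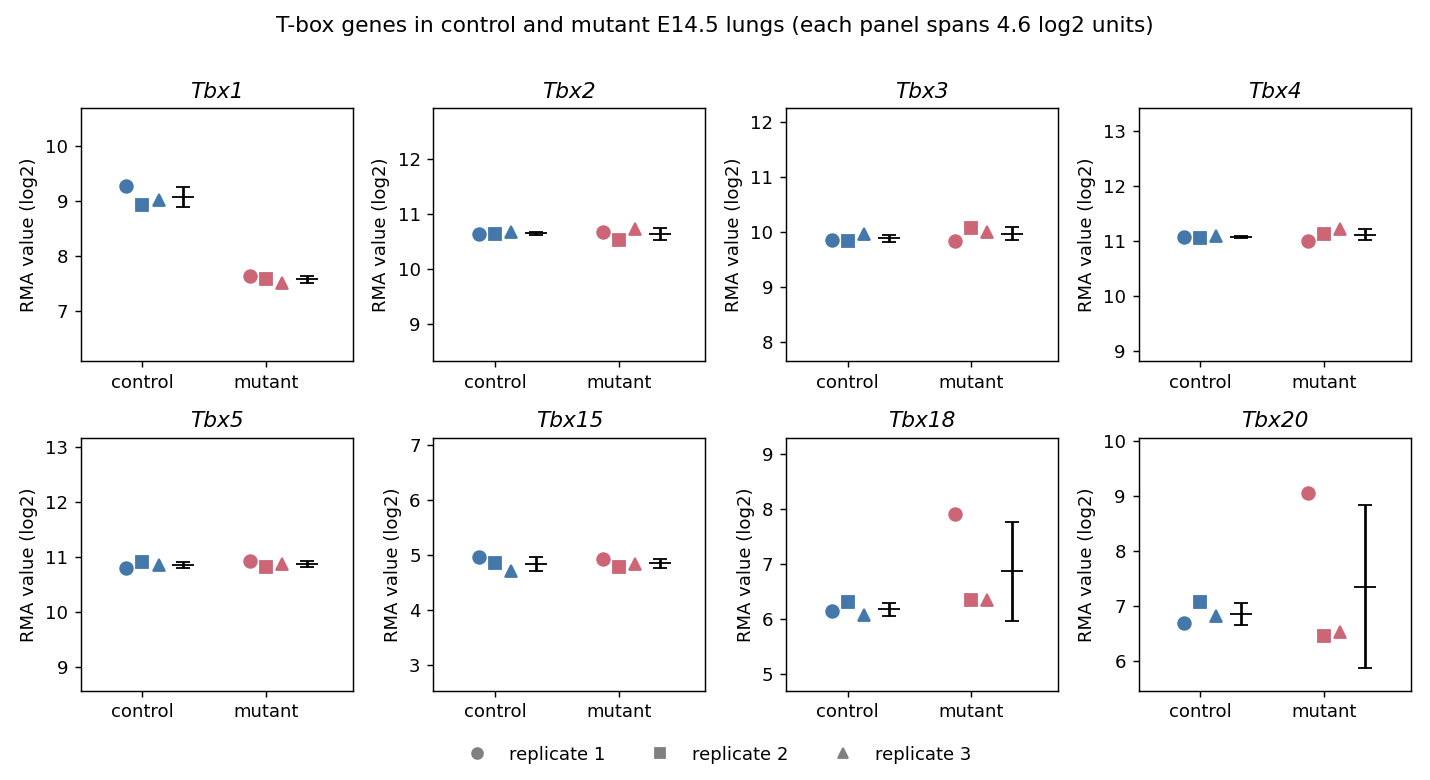
RMA values (log2, y axis) of the 8 T-box genes in control and mutant lungs. Each symbol is 1 array, black bars are the mean and SD of 3 arrays, and every panel spans the same range. Tbx1 is lower in all 3 mutants, Tbx2 to Tbx5 and Tbx15 overlap, and mutant 1 alone is far above the rest in Tbx18 and Tbx20.

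The genotype was checked on the targeted genes. Foxp2 gave 10.52, 10.54 and 10.53 in the controls against 9.59, 9.55 and 9.60 in the mutants, a difference of -0.95 ± 0.05 (limma adjusted p = 4.75e-05). Foxp4 gave 9.43, 9.37 and 9.40 against 8.75, 8.56 and 8.96, a difference of -0.64 ± 0.10 (adjusted p = 0.00591). Foxp1 gave 9.68, 9.73 and 9.75 against 9.45, 9.25 and 9.55, a difference of -0.31 ± 0.08 that missed the threshold (adjusted p = 0.0661). All 3 genes were lower in every mutant than in every control, as were 12.6% of all genes. Foxp1 passed in 1 of 16 alternative settings, without mutant 3 (limma adjusted p = 0.0428), and its adjusted p reached 0.218 in the others. Mutant 3 had the highest mutant value of Foxp1, so leaving it out favours a fall. Whether these features cover the deleted exons is not known here. Of the other tissues listed, 6 of 8 smooth muscle markers fell (among them Myh11 at -2.57, Cnn1 at -2.21 and Actg2 at -1.99) and 1 rose (Des, 0.70). Of 8 cartilage markers 2 fell (Cytl1 at -1.80 and Cnmd at -1.42), and of 7 endothelial markers 0 passed in limma (1 at an unadjusted p of 0.05). Over all genes 3.84% rose and 3.83% fell. The lowest correlation between arrays over all genes was 0.998 within controls and 0.994 within mutants. The median SD per gene was 0.061 in the controls and 0.095 in the mutants.

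The start of Tbx1 is shown because this is the member that changed. The gene lies on chromosome 16, and the RefSeq promoter table for GRCm38.p6 gives it a pair of start sites. The windows below hold the 250 bases before each start, 5′ to 3′ on the minus strand, at chr16:18588900-18589149 for the first and chr16:18590672-18590921 for the second.
Tbx1 promoter 1: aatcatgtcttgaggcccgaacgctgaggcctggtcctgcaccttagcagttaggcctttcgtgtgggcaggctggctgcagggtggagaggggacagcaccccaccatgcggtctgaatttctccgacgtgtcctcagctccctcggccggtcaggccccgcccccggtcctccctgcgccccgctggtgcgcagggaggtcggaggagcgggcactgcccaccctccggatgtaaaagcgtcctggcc
Tbx1 promoter 2: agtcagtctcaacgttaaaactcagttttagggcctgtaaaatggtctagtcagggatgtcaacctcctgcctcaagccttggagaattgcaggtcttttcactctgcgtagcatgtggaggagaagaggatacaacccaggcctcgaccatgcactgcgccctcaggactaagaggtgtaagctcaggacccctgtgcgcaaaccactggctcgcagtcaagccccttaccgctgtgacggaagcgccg
The first window is 67.2% G and C and the second 54.4%, where the median of all 32851 promoter windows is 52.4%. A forkhead core (TGTTTAC), an alternate forkhead core (TATTTGT) and a T-box half-site (GGTGTGA) were searched on both strands, and none of these letters was found in either window, so nothing is in capitals. Over all windows of this length they occur in 3.17%, 3.29% and 3.33%. The table holds a start for 4 of the 8 members (Tbx1, Tbx4, Tbx18 and Tbx20), and the same search found no match in the windows of the other 3. No match says only that these letters are not in these 250 bases. The build used for the arrays is not given in the sources used here.

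Tbx1 encodes the T-box factor of the pharynx and lung epithelium. It read 9.28, 8.93 and 9.02 on the log2 scale in controls 1, 2 and 3 and 7.63, 7.59 and 7.51 in mutants 1, 2 and 3. The groups did not overlap, and the mutants lay closer together (SD 0.063, n = 3) than the controls (SD 0.18, n = 3). The difference, mutant minus control, was -1.49 ± 0.09 (SE, n = 3 per group), with a 95% interval from -1.71 to -1.28 and a limma adjusted p of 8.94e-05. It lay between -1.57 and -1.39 when each array was left out in turn (adjusted p up to 0.00122). Of all 19946 genes, 47 had a more negative difference. The values are those of the robust multi-array average (RMA), a method known to compress large differences.

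Markers of lung epithelium were lower in the same mutants, and their part in the difference of Tbx1 was not tested. Of 12 such genes, 9 fell, against 3.83% of all genes, and the other 3 missed the threshold. Their median difference was -0.68, and 7, 6 and 6 fell without control 1, control 2 and control 3. The summed level of the list on the log2 scale was 13.90 to 13.93 in the controls and 12.95 to 13.20 in the mutants. Sftpc, the surfactant protein of distal cells (-5.58 ± 0.06), and Sox2, the factor of the proximal airway (-2.08 ± 0.17), had more negative differences than Tbx1, and the other 10 markers lay closer to 0, among them the keratin Krt8 (-1.03 ± 0.13). Epcam, a surface protein of most epithelia, was at -0.33 ± 0.08 (adjusted p = 0.0384), and E-cadherin (Cdh1) was at -0.19 ± 0.05 and did not pass (adjusted p = 0.0684). In whole lung, fewer epithelial cells and less Tbx1 RNA per cell cannot be told apart.

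Thymus, skeletal muscle and oesophagus, tissues near the dissected lung, were followed by their markers. Of 6 thymus markers 0 passed in limma (0 also at an unadjusted p of 0.05), and their summed level was 8.92 to 9.03 in the controls and 8.92 to 8.99 in the mutants. The thymic epithelial factor Foxn1 read 5.88 to 5.94 in the controls and 5.85 to 5.95 in the mutants. Of 8 skeletal muscle markers 1 fell, the myosin light chain Mylpf (-0.24), a call that ended without control 1, control 2, control 3 or mutant 3. The summed level of that list was 9.67 to 9.71 in the controls and 9.48 to 9.70 in the mutants. Of 6 markers of oesophageal epithelium 1 rose, the basal cell factor Trp63 (0.34), a call that ended without control 1, control 3, mutant 1 or mutant 3. Their summed level was 8.86 to 8.92 in the controls and 8.85 to 8.94 in the mutants. For these 6 the mutant values lay wholly above the controls in 2 and wholly below in 3, against 13.4% and 12.6% of all genes. Over all genes 3.84% rose and 3.83% fell. In the controls 1 of 6 thymus, 3 of 8 skeletal muscle and 1 of 6 oesophageal markers lay above the array median. Summed levels of such dim lists say little about how much of each tissue was present.

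The genes whose pattern over the 6 arrays was most like that of Tbx1 were found by the root mean square distance between gene-centred values. They were Habp2, a serine protease that binds hyaluronan (distance 0.081), the simple epithelial keratin Krt7 (0.089) and the cadherin Cdh8 (0.10). Their differences were -1.44 ± 0.09, -1.44 ± 0.06 and -1.58 ± 0.11. Habp2 read 7.89, 7.56 and 7.59 in the controls and 6.20, 6.20 and 6.32 in the mutants. Since the genes were picked by this distance, their likeness to Tbx1 in difference and in order of arrays follows from the choice. On chromosome 16 the nearest measured genes on both sides of Tbx1 did not pass. Gnb1l, with 0 unmeasured genes between, was at -0.30 ± 0.11 (limma adjusted p = 0.192). The endothelial claudin Cldn5, with 7 between, was at -0.01 ± 0.09 (adjusted p = 0.964).

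The mesenchymal pair Tbx4 and Tbx5, known for driving limb and lung outgrowth, overlapped between genotypes. Tbx4 read 11.08, 11.06 and 11.09 in the controls and 11.01, 11.13 and 11.22 in the mutants. The lowest and the highest of the 6 values were both mutants. Its difference was 0.04 ± 0.07, with an interval from -0.11 to 0.20 (limma adjusted p = 0.804). Tbx5 read 10.80, 10.91 and 10.86 in the controls and 10.93, 10.81 and 10.86 in the mutants, with nearly the same range in both genotypes. Its difference was 0.01 ± 0.06, with an interval from -0.12 to 0.15 (adjusted p = 0.939). For Tbx5 the interval runs from 1.09-fold lower to 1.11-fold higher in the mutants.

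Tbx2 and Tbx3, repressors that keep proliferation going, also overlapped between genotypes. Tbx2 read 10.63, 10.63 and 10.68 in the controls and 10.68, 10.52 and 10.72 in the mutants, and its difference was -0.01 ± 0.07 (interval -0.16 to 0.15, limma adjusted p = 0.974). Tbx3 read 9.85, 9.85 and 9.96 in the controls and 9.83, 10.07 and 10.001 in the mutants, and its difference was 0.08 ± 0.08 (interval -0.09 to 0.25, adjusted p = 0.657). Mutants 2 and 3 were above all controls in Tbx3 and mutant 1 below them. The interval of Tbx3 is the widest of the 4 and reaches 1.19-fold higher. The intervals of these 4 genes and that of Tbx1 did not overlap, and the difference between their responses was not tested. A p that misses the threshold does not show that the levels were equal.

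Tbx2 and Tbx4 are neighbours on chromosome 11, with 0 unmeasured RefSeq genes between them, and Tbx3 and Tbx5 lie on chromosome 5 with 2 unmeasured genes between them. The nearest measured genes outside these pairs did not pass either. Bcas3, with 4 unmeasured genes between it and Tbx2, was at 0.17 ± 0.06 (limma adjusted p = 0.166), and Brip1, with 2 between it and Tbx4, was at 0.13 ± 0.06 (adjusted p = 0.234). Med13l, with 14 between it and Tbx3, was at 0.17 ± 0.08 (adjusted p = 0.278), and Rbm19, with 5 between it and Tbx5, was at 0.0003 ± 0.06 (adjusted p = 0.999). Of 10 mesenchyme markers, which share their tissue with Tbx2 to Tbx5, 1 rose (Lum, a matrix proteoglycan, 0.67), 1 fell (Foxf1, a hedgehog-responsive forkhead gene, -0.38) and 8 missed the threshold. Over all genes 3.84% rose and 3.83% fell. The Lum and Foxf1 calls both ended without control 1, control 2 or control 3. Without mutant 2 the Lum call ended too. The summed level of that list was 13.98 to 14.05 in the controls and 13.90 to 14.06 in the mutants.

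**Figure D2:**
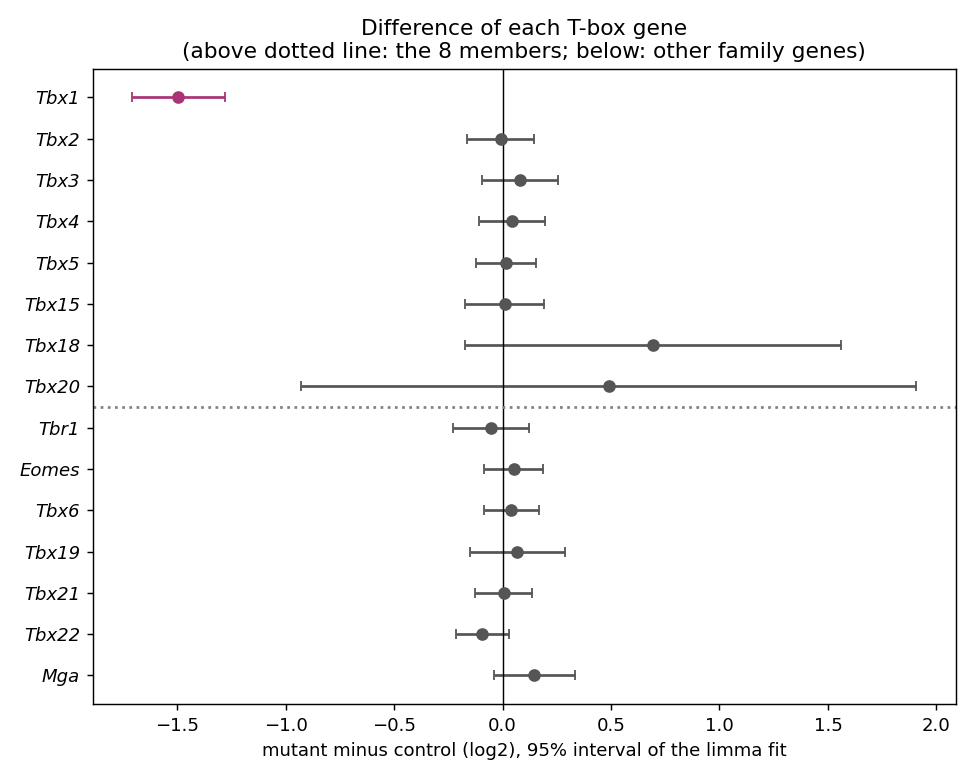
Mutant minus control difference (log2, x axis) of each T-box gene with the 95% interval of the limma fit over 3 arrays per group. The interval of Tbx1 lies from -1.71 to -1.28, those of Tbx2 to Tbx5 are narrow and include 0, and those of Tbx18 and Tbx20 are wide.

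Tbx18, the T-box gene of mesothelium and epicardium, read 6.13, 6.30 and 6.07 in the controls and 7.90, 6.35 and 6.33 in the mutants. All mutants lay above all controls, but mutants 2 and 3 by little and mutant 1 by far. The difference was 0.69 ± 0.38 with an interval from -0.17 to 1.56 and did not pass (limma adjusted p = 0.375). Without mutant 1 it was 0.17 ± 0.08 (adjusted p = 0.28). With the median of the heart muscle markers as a covariate it was 0.36 ± 0.08 and passed (adjusted p = 0.0379), so its call depends on that covariate.

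Tbx20, a factor of heart muscle and endocardium, read 6.68, 7.07 and 6.81 in the controls and 9.05, 6.45 and 6.53 in the mutants. Mutant 1 was above every other array, and mutants 2 and 3 were below every control. The difference of 0.49 ± 0.61 (interval -0.93 to 1.91, limma adjusted p = 0.755) turned to -0.37 ± 0.11 without mutant 1 (adjusted p = 0.112) and to -0.06 ± 0.13 with the heart marker covariate (adjusted p = 0.858).

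As a list, heart muscle markers were also highest in mutant 1. Their part in the values of Tbx18 and Tbx20 was not tested. The covariate of the fits above was set mostly by mutant 1, so those fits cannot tell heart muscle from other traits of that array. Measured from each gene's control mean, the median of 15 such genes was 1.14 in mutant 1, -0.18 in mutant 2 and -0.18 in mutant 3. Their summed level was 12.01 to 12.06 in controls, and 13.33, 11.15 and 11.06 in mutants 1 to 3. Measured from its control mean, Tbx18 was at 1.74, 0.18 and 0.16 in mutants 1 to 3, unlike the marker median in mutants 2 and 3. The atrial and embryonic chain Myl4 read 8.73 to 8.82 in the controls and 10.83, 8.34 and 8.01 in the mutants. The myosin heavy chain Myh6 read 7.44 to 7.58 in the controls and 10.29, 6.98 and 6.95 in the mutants. In contrast, the ventricular chain Myl2 read 5.57 to 5.73 in the controls and 5.70, 5.54 and 5.57 in the mutants, and Nkx2-5, the cardiac homeobox gene, read 7.66 to 7.92 and 7.89, 7.61 and 7.79. With all arrays 0 of the 15 passed in limma (0 also at an unadjusted p of 0.05). Without mutant 1 the genes Myh6 (-0.55), Tnni3 (-0.36), Actc1 (-2.32) and Myl4 (-0.60) fell. In that fit 1484 of all 19946 genes passed in either direction. Mutant 1 had the highest mutant value of each of these heart genes, so leaving it out favours a fall.

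Ranked by how far mutant 1 exceeded the mean of mutants 2 and 3, Tbx20 was number 6 and Tbx18 number 17 of 19946 genes, with excesses of 2.57 and 1.56. The next members were Tbx15 (0.12, rank 3524) and Tbx5 (0.09, rank 4684). Of the heart markers 10 of 15 exceeded by more than 1 unit, among 44 genes in all. Tbx5, Tbx2 and Tbx3 are also expressed in the heart, and their excesses in mutant 1 were 0.09, 0.06 and -0.20. Their control means were 10.85, 10.65 and 9.89, against 6.85 for Tbx20 and 6.17 for Tbx18. At such high levels a small added signal would hardly show, and what these excesses say about heart tissue was not tested. Mesothelial markers, the other home of Tbx18, differed less between arrays. Measured from each gene's control mean, not as an excess, their median was 0.18, -0.11 and -0.07 in mutants 1, 2 and 3. Their summed level was 11.31 to 11.57 in the controls and 11.64, 11.30 and 11.21 in the mutants. By both measures mutant 1 was the highest of all arrays. Of 8 such genes 1 rose, Lrrn4 (0.67 ± 0.12), a call that ended without control 1 or control 2. Over all genes 3.84% rose. Wt1, the factor shared by mesothelium and epicardium, read 7.81, 7.73 and 7.95 in the controls and 8.23, 7.66 and 7.76 in the mutants.

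**Figure D3:**
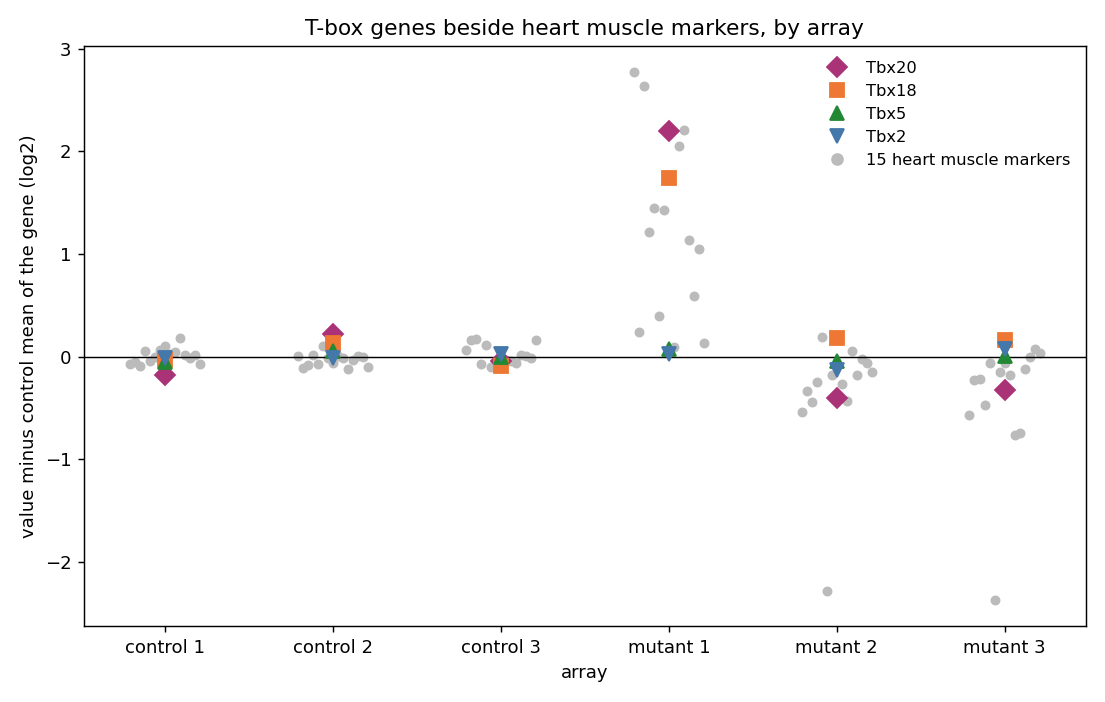
Value of each gene minus its control mean (log2, y axis) in each of the 6 arrays, for 4 T-box genes and 15 heart muscle markers in grey. In mutant 1 Tbx20 (2.20) and Tbx18 (1.74) lie among the raised heart markers, while Tbx5 (0.08) and Tbx2 (0.03) stay near 0.

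The nearest measured gene on one side of Tbx18 on chromosome 9, with 9 unmeasured RefSeq genes between, was Nt5e. This gene, which encodes the ectoenzyme CD73, fell by 0.38 on the log2 scale (SE 0.065, limma adjusted p = 0.0106), a call that ended without control 2 or control 3. Cep162, the nearest measured gene on the other side with 2 unmeasured between, was at 0.04 ± 0.06 (adjusted p = 0.801). The nearest measured genes around Tbx20, Cypt4 (0 unmeasured between) and Herpud2 (5 between), were at -0.07 ± 0.06 and -0.03 ± 0.06 and did not pass.

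Tbx15 read 4.95, 4.85 and 4.70 in the controls and 4.93, 4.77 and 4.83 in the mutants. The Y-linked genes Kdm5d, Eif2s3y and Uty read 4.15 to 4.96 in the 4 arrays of female embryos, and Tbx15 lay in that range, so no expression of it could be told from background. Its difference was 0.01 ± 0.08 (limma adjusted p = 0.967). The nearest measured genes on chromosome 3, Wars2 (3 unmeasured between) and Spag17 (5 between), were at 0.26 ± 0.15 and -0.05 ± 0.06 and missed the threshold. Of 9 other T-box genes listed, 7 were measured on a feature of their own (T and Tbx10 were not), and 0 of the 7 passed in limma (0 also at an unadjusted p of 0.05). Mga, a broadly expressed factor that joins a T-box to a MAX-binding domain, read 9.63 to 9.81 in the controls and 9.80 to 10.03 in the mutants (0.15 ± 0.08, adjusted p = 0.381). Tbx6, a factor of the paraxial mesoderm, was at 0.04 ± 0.05, and Tbx19, of the pituitary, at 0.07 ± 0.10. Tbx21 and Eomes, of lymphocytes, were at 0.01 ± 0.06 and 0.05 ± 0.06. Tbr1, of cortical neurons, was at -0.05 ± 0.08, and Tbx22, of the palate, at -0.09 ± 0.05 with all mutants below all controls.

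Among genes tied to Tbx1 in the pharynx more passed as rises than as falls. This list, like the others, was drawn up with earlier results of these data known, so its counts are not a test. Of the 14 measured, 5 rose, 1 fell and 8 missed the threshold. Their differences were positive for 7 and negative for 7, with a median of 0.0044. Of all genes 3.84% rose and 3.83% fell, and their median was -0.0055. Isl1, a homeobox gene of cardiac and pharyngeal progenitors, read 6.72, 6.30 and 6.43 in the controls and 7.48, 8.29 and 7.91 in the mutants (1.41 ± 0.19, limma adjusted p = 0.00402). The groups did not overlap. Eya1, a phosphatase and transcriptional coactivator, was at 1.41 ± 0.10 (adjusted p = 0.00019), and read 7.55 to 7.66 in the controls and 8.76 to 9.16 in the mutants. The growth factor Fgf8, which Tbx1 is known to regulate, read 7.27 to 7.53 in the controls and 7.91 to 8.01 in the mutants and rose (0.57 ± 0.08, adjusted p = 0.0034). The pharyngeal forkhead gene Foxi3 also rose (0.48 ± 0.08, adjusted p = 0.00773), and so did Six4 (0.39 ± 0.08, adjusted p = 0.0271). The Six4 call ended without control 1, control 3, mutant 1 or mutant 2, and also when all features were tested (adjusted p = 0.0812). Chrd, the BMP antagonist chordin, fell (-0.25 ± 0.06, adjusted p = 0.0377), a call that ended without control 1, control 2, control 3, mutant 2 or mutant 3. The Chrd call also ended with all features tested (adjusted p = 0.083), with embryo sex as a covariate (0.0718), with the replicate number as a block (0.0859) and with trend and robust moderation (0.0642). Ripply3, a corepressor that binds Tbx1, was at -0.01 ± 0.07, and the retinoic acid hydroxylases Cyp26a1, Cyp26b1 and Cyp26c1 were between -0.10 and -0.02 and did not pass.

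Hedgehog and BMP signals act upstream of Tbx2 and Tbx3. Of 8 genes of these pathways 1 fell and 7 missed the threshold (median -0.22). Over all genes 3.83% fell. Hhip, the hedgehog-binding feedback gene, read 10.10 to 10.12 in the controls and 7.39, 8.20 and 7.78 in the mutants (-2.32 ± 0.17, limma adjusted p = 0.000208). The ligand Shh was at -0.96 ± 0.29, its receptor Ptch1 at -0.56 ± 0.17 and the effector Gli1 at -0.31 ± 0.15, none past the threshold (adjusted p 0.101, 0.108 and 0.32). Mutant 2 had the highest mutant value of each (9.25, 10.98 and 8.58). Without it 4 of the list fell, Hhip (-2.53), Shh (-1.34), Ptch1 (-0.75) and Gli1 (-0.49), and Gli3 rose (0.23). Since its values were the highest of the mutants, leaving it out favours a fall.

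Of 5 measured genes that Tbx2 or Tbx3 are known to repress, 1 rose and 4 missed the threshold (median -0.06). Over all genes 3.84% rose. Frzb, a secreted Wnt antagonist, read 5.81, 6.05 and 5.57 in the controls and 8.09, 8.38 and 7.64 in the mutants (2.23 ± 0.19, limma adjusted p = 0.000372). The groups were far apart. Shisa3, a second Wnt antagonist, was at -0.06 ± 0.08 and the cell cycle inhibitors Cdkn1b and Cdkn2a were at 0.11 ± 0.08 and -0.09 ± 0.09. Cdh1 belongs to this list too and was at -0.19. The list had 1 fall without mutant 2 and 0 with any other single array left out. Mutant 2 had the highest mutant value of Cdh1 (9.98), so leaving it out favours a fall of that gene.

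In the list around Tbx4 and Tbx5, 4 of 12 genes rose, 2 fell and 6 missed the threshold (median 0.19). Over all genes 3.84% rose and 3.83% fell. With single arrays left out 3 to 6 rose. Fgf10, the mesenchymal growth factor that Tbx4 and Tbx5 activate, read 9.01, 8.96 and 9.0 in the controls and 9.68, 9.84 and 9.75 in the mutants (0.77 ± 0.06, limma adjusted p = 0.000299). Its groups were well separated, whereas those of Tbx4 and Tbx5 overlapped. Its epithelial receptor Fgfr2 fell (-1.03 ± 0.07, adjusted p = 0.000122). The ETS factors downstream of the receptor moved in opposite directions, Etv4 up (1.58 ± 0.10) and Etv5 down (-0.87 ± 0.11). The Wnt effector Lef1 rose (0.61 ± 0.08), as did the Wnt amplifier Rspo2 (0.68 ± 0.13), whose call ended without control 2 or control 3 and when all features were tested (adjusted p = 0.0618). Wnt2, the mesenchymal ligand, read 10.14, 10.21 and 10.19 in the controls and 10.53, 10.79 and 10.22 in the mutants, all above the controls, and did not pass (0.33 ± 0.13, adjusted p = 0.19). Axin2, a Wnt target, was at -0.0034 ± 0.07.

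Of 13 genes that work with T-box factors in the heart, 1 rose and 12 missed the threshold (median 0.06). Over all genes 3.84% rose. The list member that rose was Isl1, which is also in the pharyngeal list. It was lowest among the mutants in mutant 1 (7.48), where the heart muscle markers were highest, and a link was not tested. Gata4, a cardiac and mesothelial zinc finger factor, read 7.68 to 7.86 in the controls and 8.22, 7.42 and 7.56 in the mutants. The atrial peptide Nppa, a target of Tbx5 and Tbx20, read 5.95 to 5.96 in the controls and 6.55, 5.94 and 5.96 in the mutants, so mutant 1 stood apart there as well. With mutant 1 left out the list had 1 fall, against 0 with all arrays.

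**Figure D4:**
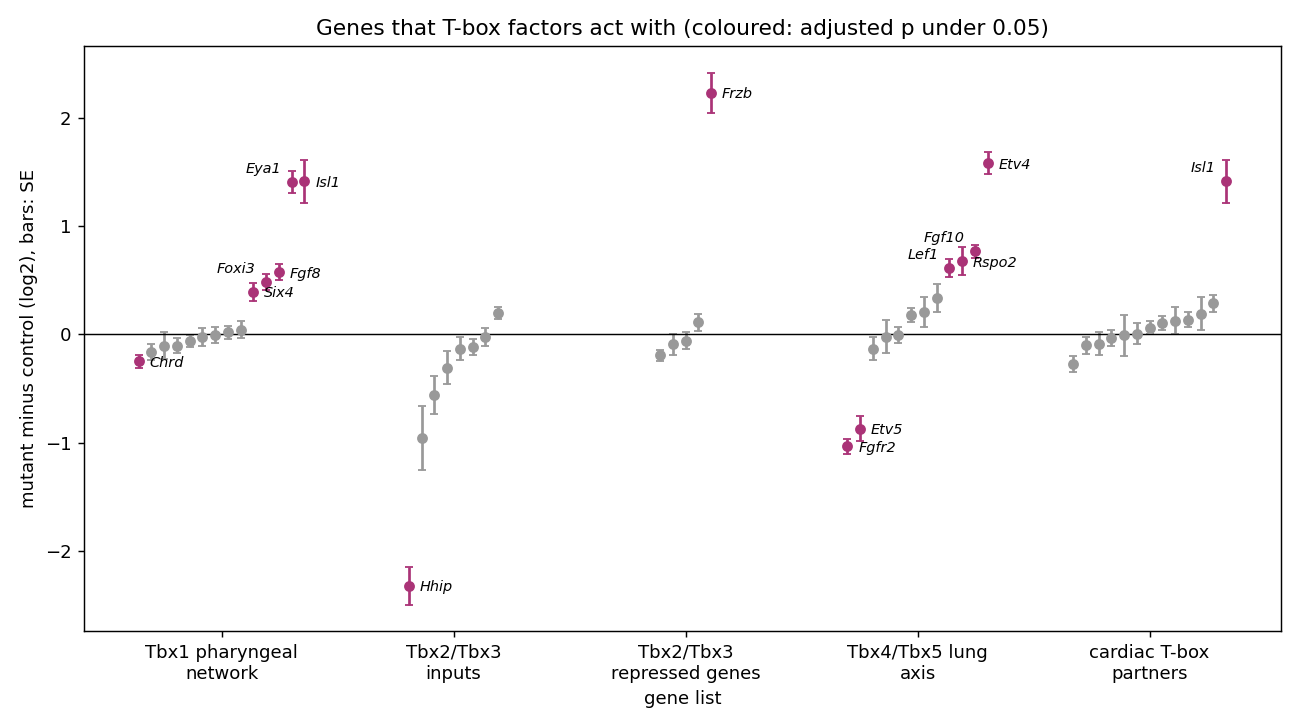
Mutant minus control difference (log2, y axis) with its SE for the measured genes of 5 lists, each point 1 gene over 3 arrays per group. Coloured, named points passed an adjusted p of 0.05. Frzb (2.23), Etv4 (1.58) and Isl1 (1.41) are among the highest points and Hhip (-2.32) is the lowest.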

How the data were processed

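Whole-lung RNA from 3 control and 3 mutant embryos was hybridised to single-colour arrays. The deposited log2 values were made by the authors with oligo and RMA, per the submitters' processing notes, without versions or settings. RMA corrects background, normalizes arrays and summarises probes. The values carry no detection calls. The number of arrays limits the precision. Of 35556 features, 21797 had 1 gene symbol. A gene with several was represented by its brightest feature, leaving 19946 genes. Symbols were matched to RefSeq (GRCm38.p6) by Entrez identifier for 21706 features.

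The model (limma 3.58.1 under R 4.3.3) had genotype alone as its term and used two-sided moderated tests with lmFit and eBayes, with Benjamini-Hochberg adjustment over all genes and a threshold of 0.05. The script was tested on simulated data. The members and lists were chosen with earlier results of these data known. Named genes are all T-box genes, up to 6 changed members per pathway list (otherwise the 2 of smallest p), up to 3 per marker list, genomic neighbours and the 3 most similar genes of a changed member. Further listed genes (Des, Epcam, Cdh1, Foxn1, Wt1, Myl2, Myl4, Myh6, Tnni3, Actc1, Nkx2-5, Gata4, Nppa, Ripply3, the Cyp26 genes, Shh, Ptch1, Gli1, Gli3, Shisa3, Cdkn1b, Cdkn2a, Wnt2 and Axin2) were named after their values were seen. A summed level is the log2 of the sum of unlogged values. Alternatives covered normalization, filters, feature choice, moderation, weights, covariates, thresholds and single arrays left out. The promoter windows and their motifs were chosen after the values were seen. The labels do not say that the arrays came from separate litters, so p-values measure the spread between these arrays. Replicate numbers in the titles were not taken as pairs.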

Additional observations from a re-analysis of the deposited data

How the results depend on the processing

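Tbx1 kept its fall and its call in all 16 alternatives that give it a value, from -1.57 to -1.39 (limma adjusted p up to 0.00168), and from -1.57 to -1.39 with single arrays left out. The count of members called was 1 in each alternative except with the heart marker median as a covariate, where it was 2 because Tbx18 passed (0.36). It was 1 with each array left out. The count of all genes called was 1528, 549 with a 1.5-fold minimum, and 774 to 1745 with single arrays left out (876 without control 1, 793 without control 2 and 774 without control 3).

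The difference of Tbx20, 0.49 with all arrays, reversed to -0.37 without mutant 1 and to -0.056 with the heart marker covariate, and ranged from -0.37 to 0.94 with single arrays left out. The other signs that turned were of differences under 0.1. With the heart marker covariate Tbx15 was at -0.017 and Tbx5 at -0.0048. With array weights Tbx2 was at 0.031, and with quantile normalization applied again Tbx21 was at -0.011. With single arrays left out Tbx2 ranged from -0.049 to 0.052, Tbx4 from -0.0081 to 0.098, Tbx5 from -0.017 to 0.042 and Tbx15 from -0.056 to 0.070. Tbr1 ranged from -0.12 to 0.019, Tbx19 from -0.042 to 0.13 and Tbx21 from -0.020 to 0.040.

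Array pairs of the same replicate number had correlations of deviations of -0.069, 0.049 and 0.15, so the numbers are not taken as pairs. So few arrays cannot show that they were unpaired, and embryo sex matched by number. With the replicate number as a block Tbx1 was at -1.49 and passed, 1 member was called, and 1137 genes passed. Counts of the lists were recomputed with single arrays left out, an alternative added after seeing the data, and under no other setting.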

Other observations

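Besides the listed heart markers, the genes by which mutant 1 most exceeded mutants 2 and 3 included Hspb7 (2.51), a small heat shock protein of muscle, Ankrd1 (2.37), an ankyrin repeat protein of heart muscle, and the troponin gene Tnnc1 (2.11). The actin-capping gene Tmod1 exceeded by 1.78. These were named after their values were seen. The female marker Xist exceeded by 3.24, since mutant 3 came from a male embryo by this gene and the Y-linked genes. Genes above the mean of the other arrays of the group by more than 1 unit numbered 2, 3 and 5 in the controls and 44, 25 and 3 in the mutants, in the order of their numbers. Genes below it by more than 1 unit numbered 4, 5 and 3 in the controls and 13, 13 and 19 in the mutants.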
